A study of Arabidopsis thaliana with 12 samples.

Results

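The 88 mitochondrial gene models described here are those of the deposited transcript table whose identifiers begin with ATMG, name a single gene and have a TPM above 0 in at least 3 libraries. TPM is a relative abundance that sums to 1000000 in each library, corrected for transcript length, and was summed over the transcripts of each gene. They are 88 of 123 such mitochondrial models and of 40215 gene models in all. Of the other 35 mitochondrial models, 25 were listed at 0 in every library. The libraries came from 4-day-old Arabidopsis seedlings, all grown at 22 °C under 16 h light (100 µmol photons) and 8 h dark with 1% sucrose. The *gun1W*, *gun1M* and *gun1G* groups carry *gun1-102*, a T-DNA insertion allele of *GUN1*, and are seedlings with white, marbled and green cotyledons. The reference is the wild type Col-0. Each of the 4 groups had 3 libraries of rRNA-depleted RNA, and the deposited columns name the 3 as biological replicates. No source used here says whether they came from separate sowings, and p-values measure the spread between these libraries. The labels give the tissue as cotyledon and the methods name seedlings.

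The mitochondrial genome of flowering plants encodes part of the respiratory chain. The *nad* genes encode subunits of NADH dehydrogenase (complex I), *cob* encodes apocytochrome *b* of complex III, *cox* genes encode subunits of cytochrome *c* oxidase (complex IV) and *atp* genes those of ATP synthase (complex V). The genome also holds *ccm* genes for the maturation of *c*-type cytochromes, genes for ribosomal proteins and many open reading frames of unknown function. The remaining subunits, the phage-type RNA polymerases that transcribe the genome and the proteins that process its RNA come from the nucleus. GUN1 is a plastid protein known for its part in signalling from plastids to the nucleus.

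A near-identical copy of the mitochondrial genome lies on chromosome 2 of the nuclear genome, and the reference annotation (TAIR10.1) pairs ATMG identifiers with names only through these nuclear copies. It names or describes 32 members, and the copy of each was between 99.029% and 100.0% identical to the mitochondrial genome. Of these, 13 belong to the classes *nad* (3), *cob* (1), *cox* (1), *atp* (3), *ccm* (2) and ribosomal proteins (3), another 4 are described as like a known gene, 14 have no known function and 1, ATMG00280, is like the plastid gene *rbcL* and is treated apart. The other 56 had no entry and are named by identifier only. They may include further genes of the named classes, so each class holds only the members that the annotation names. Mitochondrial positions given for members are those to which the nuclear copy aligned. Reads from a mitochondrial gene and from its nuclear copy cannot be told apart where the sequences are the same. The coding sequence of *atp9* (ATMG01080), which encodes the subunit that forms the membrane ring of ATP synthase, is shown because all of its 225 bases also stand in the nuclear model AT2G07671, with start and stop codons in capitals (TAIR10.1, MT:270961-271185, minus strand).
*atp9*: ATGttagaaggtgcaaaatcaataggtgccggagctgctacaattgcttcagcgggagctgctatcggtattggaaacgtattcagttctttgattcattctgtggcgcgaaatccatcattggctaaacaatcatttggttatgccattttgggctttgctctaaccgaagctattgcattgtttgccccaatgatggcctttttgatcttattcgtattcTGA

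ATMG00280 aligned with plastid *rbcL*, the gene of the large subunit of the carbon-fixing enzyme Rubisco, over 573 bases at 97.208% identity, with 11 mismatches and 5 gap positions. The *rbcL* coding sequence has 1440 bases. The first 180 bases of that alignment are shown, from MT:164985-165164 and Pltd:55500-55679 (TAIR10.1, both plus strand), because reads from this stretch differ at few bases. Capitals mark the 5 mismatches.
*rbcL*-like stretch of the mitochondrial genome: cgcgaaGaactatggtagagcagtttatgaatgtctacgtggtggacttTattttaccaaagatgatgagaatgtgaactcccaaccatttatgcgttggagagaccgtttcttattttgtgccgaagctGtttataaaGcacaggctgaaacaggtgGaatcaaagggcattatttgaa
*rbcL* of the plastid genome: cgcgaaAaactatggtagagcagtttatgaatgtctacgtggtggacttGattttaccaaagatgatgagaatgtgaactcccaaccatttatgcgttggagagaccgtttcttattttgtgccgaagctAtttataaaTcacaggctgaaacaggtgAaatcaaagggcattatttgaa

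The read depth is unknown. Plastid gene models took 9.29 to 12.5% of TPM in *gun1W*, 27.7 to 34.6% in *gun1M*, 38.4 to 41.5% in *gun1G* and 34.5 to 37.8% in Col-0, so TPM values were brought to a common scale by 1 factor per library from the median nuclear gene. These scaled TPM are levels relative to nuclear transcripts. The factors were 0.538 to 0.691 in *gun1W*, 0.908 to 1.16 in *gun1M*, 1.16 to 1.27 in *gun1G* and 1.21 to 1.34 in Col-0. The nuclear gene model AT3G06365 alone took 4.02 to 19.5% of TPM in *gun1W*, 0.745 to 10.5% in *gun1M*, 0.219 to 4.70% in *gun1G* and 5.71 to 8.46% in Col-0. *GUN1* itself had 25.7 to 39.3 scaled TPM in *gun1W*, 24.5 to 36.1 in *gun1M*, 20.4 to 29.7 in *gun1G* and 44.0 to 46.4 in Col-0, and a level summed over the gene does not show whether the insertion interrupts its transcripts. Of 5 markers of green cotyledons, 2 were lower in *gun1W* than in Col-0 (median log2 fold change -0.72), and 4 passed the adjusted p alone. In *gun1M* 0 were called and 1 passed the adjusted p with a lower value, and in *gun1G* 0 were called and 0 passed. All 7 root hair and root epidermis markers were detected, with summed scaled TPM of 55.0 to 79.6 in *gun1W*, 44.3 to 59.5 in *gun1M*, 39.3 to 56.6 in *gun1G* and 73.5 to 97.4 in Col-0, although the labelled tissue is cotyledon. The part of tissue makeup in the results that follow was not tested, and in bulk RNA more cells of a type and more RNA per cell cannot be told apart.

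Mitochondrial gene models other than ATMG00280 took a larger share of the transcripts in seedlings with white and marbled cotyledons. Their share of all TPM was 9.94, 9.36 and 10.4% in *gun1W*, 4.23, 4.35 and 4.24% in *gun1M*, 2.10, 2.36 and 2.26% in *gun1G*, and 2.51, 2.31 and 2.33% in Col-0. The *gun1W* and *gun1M* libraries lay above every *gun1G* and Col-0 library, whereas the *gun1G* and Col-0 libraries overlapped. Because this share also moves with the plastid share, it was computed again over nuclear and mitochondrial models alone, without AT3G06365, ATMG00280 and its nuclear copy. It was then 14.0 ± 0.720% in *gun1W*, 10.7 ± 0.950% in *gun1M*, 6.81 ± 0.387% in *gun1G* and 7.39 ± 0.362% in Col-0 (SD, n = 3 each). The order of the groups was kept, and the distance between *gun1W* and *gun1M* was smaller on this scale. On the nuclear scale the 87 members summed to 60383 ± 7202 scaled TPM in *gun1W*, 44996 ± 5724 in *gun1M*, 27278 ± 2467 in *gun1G* and 29932 ± 1266 in Col-0, that is 2.02, 1.50 and 0.911 times the Col-0 mean in *gun1W*, *gun1M* and *gun1G*.

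**Figure D1:**
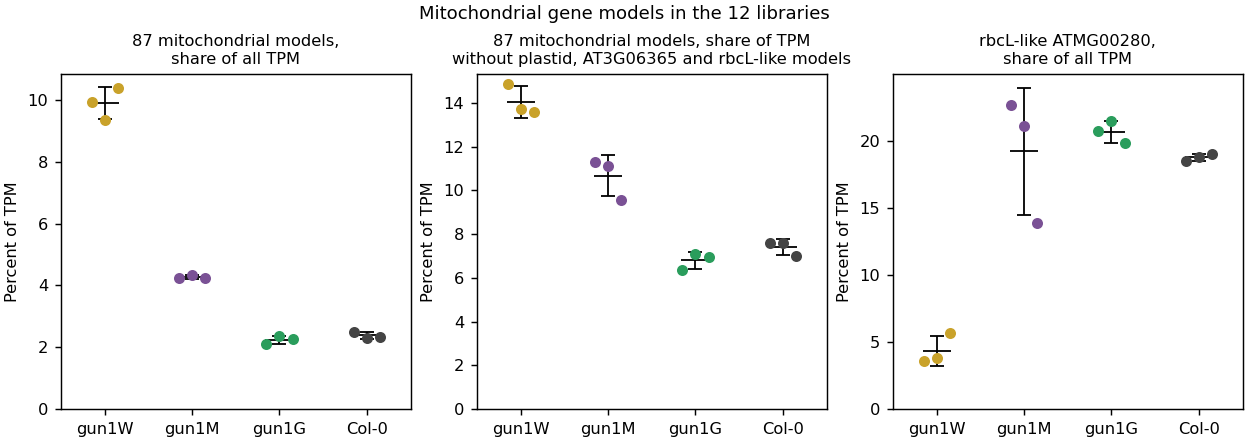
Share of TPM taken by the mitochondrial gene models without ATMG00280 in each library (points; bars are the mean ± SD), as a percentage of all TPM (left) and of the TPM of nuclear and mitochondrial models without AT3G06365, ATMG00280 and AT2G07732 (middle), with the share of ATMG00280 in all TPM (right). In the left and middle plots the 3 *gun1W* libraries sit highest, *gun1M* next, and *gun1G* and Col-0 lie together at the bottom, and in the right plot *gun1W* is lowest, at 3.57 to 5.64%.

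The members differed widely in level. In Col-0, 6 of the 87 reached at least 1000 scaled TPM, 34 reached at least 100 (the 6 included), 19 lay between 10 and 100, and 34 lay under 10. The highest was *atp9* with a mean of 8244 scaled TPM, followed by ATMG00060 with 2018, ATMG00580 with 1526, ATMG00160 with 1296, ATMG01120 with 1251 and ATMG00270 with 1144. The identifiers other than *atp9* in this list have no entry in the annotation. The members ATMG00290, ATMG00760, ATMG00310 and ATMG01310 were listed at 0 in all Col-0 libraries. Replicates were closer for high members than for low ones. The median coefficient of variation of members at or above 100 scaled TPM was 14.0% in *gun1W*, 22.5% in *gun1M*, 10.3% in *gun1G* and 13.8% in Col-0, against 42.0, 58.5, 63.5 and 62.7% in the same groups for members under 10. Of the 88 members, 83 passed the filter for testing, a TPM of at least 1 in 3 libraries, and 82 of these were not ATMG00280. The untested ATMG00400, ATMG01310, ATMG00810, ATMG00050 and ATMG00030 are all low.

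In *gun1W*, compared with Col-0, mitochondrial transcripts were higher, with at least 1 called member in every class except that of the annotated *atp* genes. Of the 82 tested members, 51 (62.2%) were at least 2-fold higher at an adjusted p under 0.05 (limma, Benjamini-Hochberg over 18373 gene models) and 0 were lower, where 7.54% of all models were called higher and 4.31% lower. All 3 *gun1W* libraries lay above all 3 Col-0 libraries for 63 members (76.8%), against 23.6% of all models. The median log2 fold change of the members was 1.16, with quartiles of 0.91 and 1.52, beside -0.0042 for all models. At an unadjusted p under 0.05, 1 member had a lower value in *gun1W*, against 3455 of the 18373 models. Without the 3 tested members listed at 0 in Col-0, 50 of 79 were higher, the median was again 1.16 and the values ran between -1.52 and 2.32. These calls are relative to nuclear transcripts: with the median mitochondrial gene set to the same level in all libraries, 4 members were higher, 5 were lower and the median of all models tested was -0.95. The share of all models called on that scale is not given here.

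In *gun1M*, 28 of the 82 members (34.1%) were higher than in Col-0 and 0 were lower, where 7.64% of all models were called higher and 5.34% lower. All *gun1M* libraries lay above all Col-0 libraries for 48 members (58.5%), against 22.4% of all models. Their median log2 fold change was 0.86, beside -0.0063 for all models. The adjusted p alone, in either direction, was passed by 45 members, and the share of all models that passed it was not counted. At an unadjusted p under 0.05, 2 had a lower value in *gun1M*, against 3830 of all 18373 models. Set to a common mitochondrial median, 5 members were higher and 7 lower, and again the share of all models called on that scale is not given here. The *gun1M* and *gun1W* comparisons use the same Col-0 libraries.

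In *gun1G*, which carries the same allele with green cotyledons, 1 of the 82 members (1.22%) was higher than in Col-0 and 0 were lower, where 3.09% of all models were called higher and 1.48% lower. All *gun1G* libraries lay above the Col-0 libraries for 10 members (12.2%) and below them for 6, against 18.8 and 17.6% of all models. The median log2 fold change was 0.04, beside -0.0016 for all models. At an unadjusted p under 0.05, 5 members had higher and 4 lower values in *gun1G*, against 2586 and 2313 of all 18373 models. The call was ATMG00680, a low member with no entry, which had 4.52, 1.06 and 3.33 scaled TPM in *gun1G*, against 0, 0.898 and 0 in Col-0 (log2 fold change 1.57, SE 0.40, adjusted p = 0.0314). ATMG00680 reached a TPM of 1 in no Col-0 library and passed the filter for testing only through *gun1* libraries, which partly sets the direction of this call. The groups did not overlap, but the lowest *gun1G* and the highest Col-0 library were close, and the call was lost without *gun1G* replicate 1 (log2 fold change 1.27), *gun1G* replicate 3 (1.45), or Col-0 replicate 1 or 3 (1.41 each).

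The groups with the same genotype and different cotyledons were also compared with each other. In *gun1W*, 46 members (56.1%) were higher than in *gun1G* and 0 were lower, where 3.06% of all models were called higher and 1.94% lower, with a median log2 fold change of 1.17 (0.0095 for all models). All *gun1W* libraries lay above all *gun1G* libraries for 63 members, against 16.9% of all models. In *gun1M*, 22 members (26.8%) were higher than in *gun1G* and 0 were lower, where 1.35 and 0.675% of all models were called, with a median of 0.78 (-0.0020 for all models). All *gun1M* libraries lay above the *gun1G* libraries for 43 members (52.4%), against 12.2% of all models. That count of calls was 8 without *gun1M* replicate 2, and 10 without *gun1G* replicate 2 or *gun1G* replicate 3. Between *gun1W* and *gun1M* 0 members were called in limma, where 0.0435% of all models were called higher and 0.098% lower. At an unadjusted p under 0.05, 23 members had higher and 2 lower values in *gun1W*, against 1026 and 949 of all 18373 models. All 3 *gun1W* libraries lay above those of *gun1M* for 24 members (29.3%) and below them for 2, against 7.16 and 7.11% of all models. The median was 0.35 (0.0078 for all models). On TPM as deposited, in which the median nuclear gene itself shifted by 0.64 on the log2 scale between *gun1W* and *gun1M*, 49 members were called higher in *gun1W*. Of all 18373 models, 2381 were called higher on that scale.

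**Figure D2:**
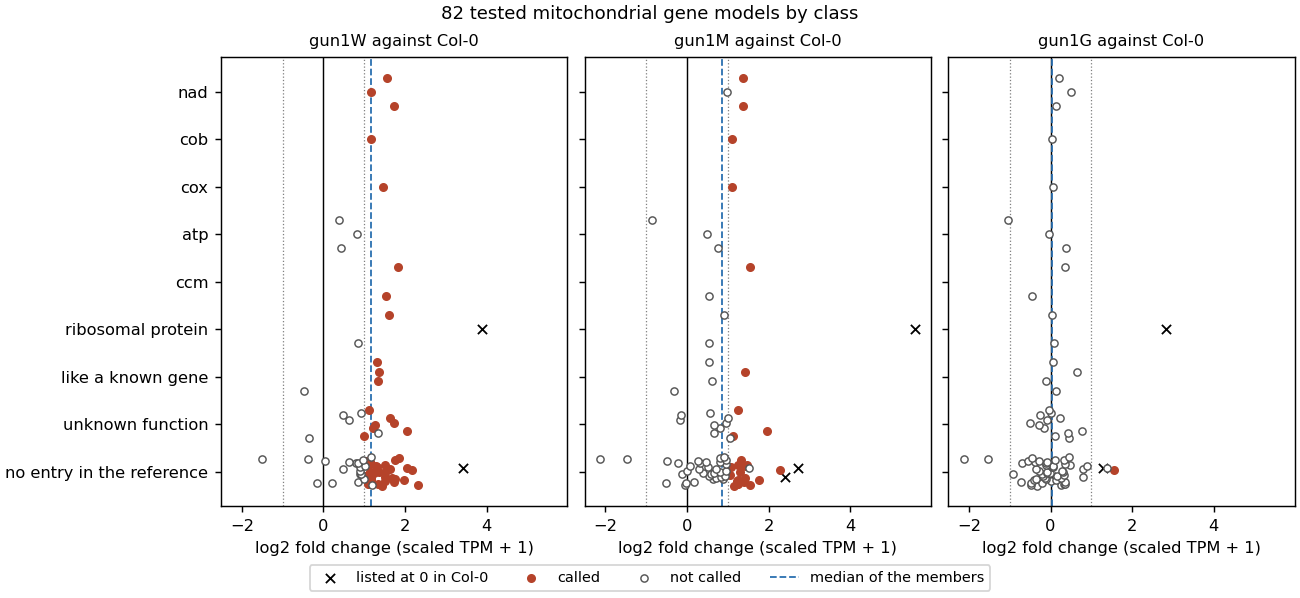
Log2 fold change (scaled TPM + 1) of the 82 tested members against Col-0, by class, for *gun1W*, *gun1M* and *gun1G*. Filled points are called members, crosses are members listed at 0 in all Col-0 libraries. Dashed lines mark the median of the members and dotted lines the 2-fold limits. Most points lie above 0 in *gun1W* and *gun1M* and around 0 in *gun1G*, and no point of the annotated *atp* class is filled.

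Among annotated members, complex I was represented by *nad3* and by parts of *nad1* and *nad2*, transcripts that are joined by trans-splicing in plant mitochondria. Members with no entry may include more of its genes. All 3 were higher in *gun1W* and 2 of 3 in *gun1M*. *nad3* (ATMG00990, MT:288044-288400, plus strand) had 932, 794 and 804 scaled TPM in *gun1W*, 789, 777 and 466 in *gun1M*, 303, 277 and 252 in *gun1G*, and 266, 253 and 237 in Col-0. The *gun1W* and *gun1M* libraries all lay above those of *gun1G* and Col-0, which overlapped. The log2 fold change against Col-0 was 1.74 in *gun1W* (SE 0.19, adjusted p = 0.00011), 1.38 in *gun1M* (adjusted p = 0.000637) and 0.14 in *gun1G* (adjusted p = 0.699). The second part of *nad2* (ATMG01320, MT:94592-95236, minus strand) had 1162, 1277 and 1584 scaled TPM in *gun1W*, 1352, 1437 and 813 in *gun1M*, 580, 490 and 497 in *gun1G*, and 495, 508 and 366 in Col-0. It was higher by 1.56 (log2, SE 0.23, adjusted p = 0.0006) in *gun1W* and by 1.36 (adjusted p = 0.00159) in *gun1M*, with *gun1M* replicate 3 the lowest of its group. The first part of *nad1* (ATMG01275, MT:82441-83342, minus strand) had 1501, 1681 and 1816 scaled TPM in *gun1W*, 1487, 1616 and 1308 in *gun1M*, 917, 1128 and 1125 in *gun1G*, and 945, 809 and 531 in Col-0. Its Col-0 libraries were spread more widely than those of *gun1G*. It was higher in *gun1W* (log2 fold change 1.17, SE 0.21, adjusted p = 0.00194), a call lost without Col-0 replicate 3 (0.93), and just missed the 2-fold limit in *gun1M* (0.98, adjusted p = 0.0055).

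The genes annotated to complexes III and IV, *cob* and *cox3*, were higher in both *gun1W* and *gun1M*. *cob* (ATMG00220, MT:180945-184187, minus strand) had 1257, 1338 and 1477 scaled TPM in *gun1W*, 1291, 1459 and 1139 in *gun1M*, 654, 590 and 616 in *gun1G*, and 673, 641 and 501 in Col-0. The 6 white and marbled libraries were clear of the other 6. *cob* was higher in *gun1W* by 1.17 (log2, SE 0.16, adjusted p = 0.000366) and in *gun1M* 2.15-fold (adjusted p = 0.000703), with a log2 value of 0.05 in *gun1G*. *cox3* (ATMG00730, MT:329776-330773, minus strand), for subunit 3 of cytochrome *c* oxidase, had 1382, 1240 and 1433 scaled TPM in *gun1W*, 1138, 1300 and 790 in *gun1M*, 529, 489 and 533 in *gun1G*, and 525, 548 and 416 in Col-0. The same libraries stood apart, *gun1M* replicate 3 being the nearest to the others. *cox3* was higher in *gun1W* by 1.45 (log2, SE 0.19, adjusted p = 0.000292) and in *gun1M* by 1.09 (adjusted p = 0.0019), with 0.07 in *gun1G*. In *gun1M* the *cob* call was lost without Col-0 replicate 3 (0.97), and the *cox3* call without that library (0.97) or without *gun1M* replicate 2 (0.94). The *cox3* call in *gun1M* was also lost when the model was summed with its nuclear copy (0.55, limma adjusted p = 0.0903).

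Both annotated *ccm* genes, which encode parts of the machinery that attaches haem to *c*-type cytochromes, were higher in *gun1W*. *ccmFN2* (ATMG00960, MT:291620-292191, plus strand) had 204, 192 and 269 scaled TPM in *gun1W*, 216, 239 and 110 in *gun1M*, 98.7, 69.5 and 67.1 in *gun1G*, and 74.0, 66.5 and 45.2 in Col-0. No *gun1W* or *gun1M* library reached down to the other groups. The log2 fold change was 1.84 in *gun1W* (SE 0.29, adjusted p = 0.00103), 1.54 in *gun1M* (adjusted p = 0.00321) and 0.34 in *gun1G* (adjusted p = 0.482). *ccmFC* (ATMG00180, MT:187538-190033, plus strand) was far lower in level, with 33.1, 19.9 and 17.5 scaled TPM in *gun1W*, 8.91, 13.2 and 10.8 in *gun1M*, 3.65, 6.66 and 4.79 in *gun1G*, and 6.33, 6.82 and 8.32 in Col-0. It was higher in *gun1W* (log2 fold change 1.54, SE 0.25, adjusted p = 0.00108), while *gun1M*, though above Col-0 in each library, was not called (0.54, adjusted p = 0.116).

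Of the 3 members annotated as *atp*, 0 were called in *gun1W* or *gun1M* in limma, and whether this class differed from the others was not tested. Members with no entry may include further *atp* genes. At an unadjusted p under 0.05, 1 had higher values in each of those groups and 1 had lower values in *gun1G*. Of all 18373 models, 3869 had higher values in *gun1W*, 3951 had higher values in *gun1M* and 2313 had lower values in *gun1G*. *atp9* (ATMG01080, MT:270671-271446, minus strand) had 19048, 9526 and 6672 scaled TPM in *gun1W*, 4511, 2991 and 7090 in *gun1M*, 2092, 5519 and 5584 in *gun1G*, and 7695, 7963 and 9074 in Col-0. The *gun1W* libraries spanned those of Col-0, and all *gun1M* and *gun1G* libraries lay below them. The log2 fold change against Col-0 was 0.37 in *gun1W* (SE 0.45, adjusted p = 0.575), -0.85 in *gun1M* (adjusted p = 0.176) and -1.04 in *gun1G* (adjusted p = 0.168). *atp9* made up 19.5% of the members' TPM in *gun1W*, 10.8% in *gun1M*, 16.1% in *gun1G* and 27.5% in Col-0. In *gun1W*, *gun1M* and *gun1G* the libraries ranked by *atp9* in the same order as by the share of AT3G06365, which was 19.5, 15.1 and 4.02% in *gun1W*, 1.16, 0.745 and 10.5% in *gun1M*, 0.219, 1.34 and 4.70% in *gun1G*, and 5.71, 8.46 and 8.42% in Col-0. Of the 82 tested members, 22 had that order in *gun1W*, 13 in *gun1M* and 20 in *gun1G*, while 17, 22 and 15 had the opposite order. With that share as a covariate the *atp9* value was -0.16 in *gun1W*, -0.51 in *gun1M* and -0.49 in *gun1G*, none of them called.

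*atp8* (ATMG00480, MT:247016-247492, minus strand), for another subunit of the membrane part of ATP synthase, had 903, 1062 and 883 scaled TPM in *gun1W*, 751, 782 and 739 in *gun1M*, 497, 540 and 520 in *gun1G*, and 607, 651 and 388 in Col-0. All *gun1W* and *gun1M* libraries lay above those of Col-0, but the fold was under 2 (log2 fold change 0.82 in *gun1W*, SE 0.18, adjusted p = 0.00737, and 0.50 in *gun1M*, adjusted p = 0.0606). *atp6-1* (ATMG00410, MT:49423-50580, plus strand), for the subunit that forms the proton channel with the ring, had 310, 401 and 614 scaled TPM in *gun1W*, 715, 693 and 298 in *gun1M*, 481, 357 and 390 in *gun1G*, and 326, 411 and 227 in Col-0. Its libraries overlapped among all groups, with log2 values of 0.44 in *gun1W* (adjusted p = 0.376) and 0.76 in *gun1M* (adjusted p = 0.123). It was called higher in *gun1M* without *gun1M* replicate 3 (1.17, adjusted p = 0.0144).

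Of the annotated ribosomal protein genes, *rpl2* was called in *gun1W*, *rps4* in *gun1M* and *rpl5* in neither. *rpl2* (ATMG00560, MT:220629-223193, minus strand), of the large subunit, had 404, 353 and 338 scaled TPM in *gun1W*, 209, 244 and 218 in *gun1M*, 111, 127 and 126 in *gun1G*, and 122, 120 and 113 in Col-0. The libraries of each group lay close together, *gun1W* above *gun1M* and *gun1M* above the rest. *rpl2* was higher in *gun1W* by 1.62 (log2, SE 0.13, adjusted p = 9.6e-06), and *gun1M* was under the 2-fold limit (0.91, adjusted p = 0.000604). *rpl5* (ATMG00210, MT:184662-186323, minus strand) had 1702, 985 and 901 scaled TPM in *gun1W*, 1114, 836 and 844 in *gun1M*, 513, 826 and 730 in *gun1G*, and 614, 595 and 700 in Col-0, with a log2 fold change of 0.85 in *gun1W* (SE 0.25, adjusted p = 0.0261) that was under 2-fold. It was called in *gun1W* without *gun1W* replicate 3 (1.03). *rps4* (ATMG00290, MT:159980-161367, plus strand), of the small subunit, had 0, 36.1 and 86.0 scaled TPM in *gun1W*, 51.6, 101 and 20.1 in *gun1M*, 55.0, 5.43 and 0 in *gun1G*, and was listed at 0 in every Col-0 library. It was called higher in *gun1M* (adjusted p = 0.0201) and not in *gun1W* (adjusted p = 0.084), the *gun1M* call was lost without *gun1M* replicate 2 or Col-0 replicate 1 or 3 (adjusted p = 0.0765, 0.054 and 0.0568), and *gun1W* was called without its replicate 1 (adjusted p = 0.00656). With 0 in Col-0, *rps4* passed the filter for testing only through *gun1* libraries, which partly sets the direction of such calls.

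**Figure D3:**
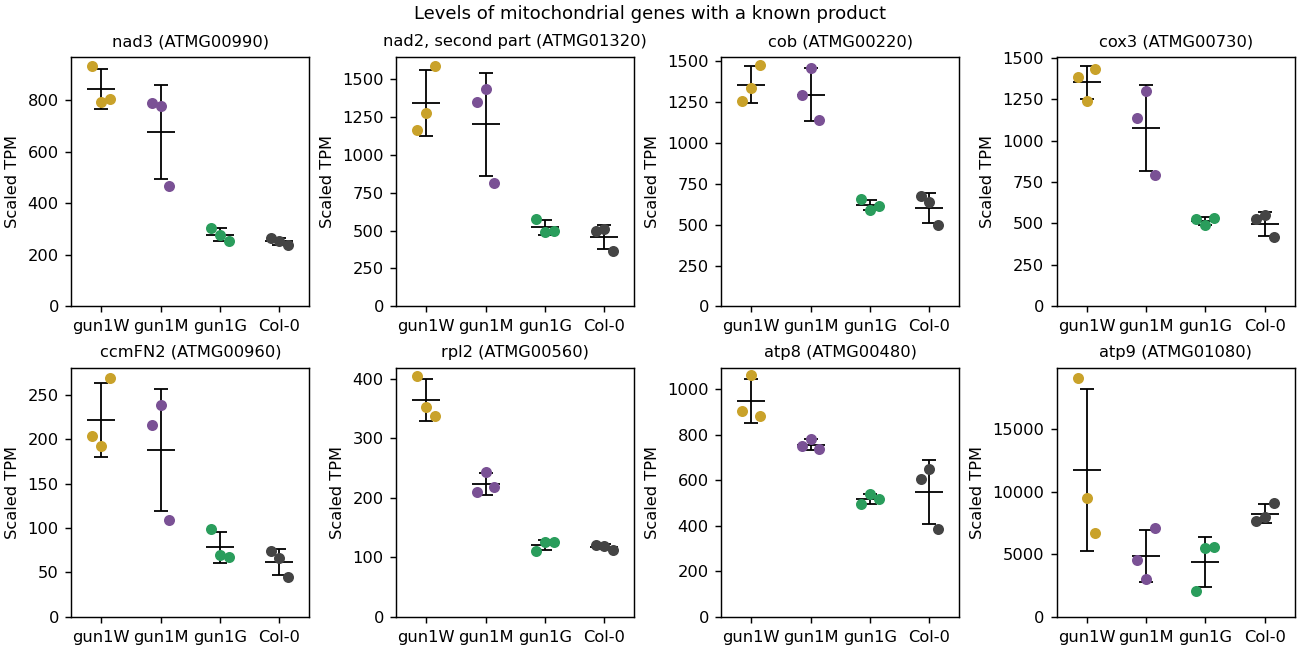
Scaled TPM of mitochondrial genes with a known product in each library (points; bars are the mean ± SD, n = 3), 1 panel per gene, each with its own axis from 0. For *nad3*, *cob*, *cox3* and *ccmFN2* the *gun1W* and *gun1M* points lie above those of *gun1G* and Col-0, and for *atp9* the 3 *gun1W* points spread between 6672 and 19048.

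Each of the 13 genes was also summed with its nuclear copy on chromosome 2, which lessens the effect of how reads were divided between them. TPM is divided by the length of each model, so the sum still depends on the division where lengths differ, and for *ccmFC*, *atp8* and *nad3* the copy added nothing. On these sums 9 of 13 were called higher in *gun1W* (median of 1.28 on the log2 scale), 5 in *gun1M* (0.95) and 0 in *gun1G* (0.04, limma). For the ATMG models alone, 8 of the 13 were higher in *gun1W* (median 1.45), 6 in *gun1M* (0.98) and 0 in *gun1G* (0.09). For *rps4*, the copy AT2G07734 had 319, 348 and 216 scaled TPM in *gun1W*, 221, 157 and 249 in *gun1M*, 69.8, 127 and 133 in *gun1G*, and 128, 114 and 138 in Col-0. The sum was 335 ± 43.4 scaled TPM in *gun1W*, 267 ± 7.80 in *gun1M*, 130 ± 4.47 in *gun1G* and 127 ± 12.1 in Col-0 (SD, n = 3 each), higher by 1.39 in *gun1W* (log2, adjusted p = 3.71e-05) and by 1.07 in *gun1M* (adjusted p = 0.000276). The sums had far less spread than the ATMG00290 values, and the 0 values of Col-0 were gone. The *cox3* model held 17.5 to 25.9% of its sum in the group means. On the sum *cox3* was higher in *gun1W* by 1.23 (log2, adjusted p = 0.0026), and its *gun1M* call was lost (0.55, adjusted p = 0.0903). *atp9* was called on neither scale (0.50 in *gun1W* and -0.54 in *gun1M* on the sum). Its copy AT2G07671, by itself, had 2380, 2221 and 2283 scaled TPM in *gun1W*, 1702, 1925 and 1304 in *gun1M*, 1087, 926 and 1012 in *gun1G*, and 1037, 1172 and 862 in Col-0, and was higher in *gun1W* (log2 fold change 1.17, adjusted p = 0.000694). Over the 45 nuclear copies tested, 31 were higher and 1 lower in *gun1W* (median 1.25), 12 were higher in *gun1M* (0.78) and 1 in *gun1G* (-0.02). Of all models, 7.54% were called higher and 4.31% lower in *gun1W*, and 7.64% higher in *gun1M* and 3.09% in *gun1G*. AT2G07732, the nuclear copy of ATMG00280, averaged 6368 scaled TPM in *gun1W* and 62093 in Col-0.

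Members described only by likeness were higher in *gun1W* for 3 of 4. The *cox2*-like ATMG01280 had 234, 212 and 150 scaled TPM in *gun1W*, 116, 97.4 and 131 in *gun1M*, 60.3, 88.9 and 100 in *gun1G*, and 92.5, 84.5 and 59.8 in Col-0 (log2 fold change 1.32 in *gun1W*, adjusted p = 0.00214). The *atp9*-like ATMG01090 had 273, 215 and 232 scaled TPM in *gun1W*, 151, 171 and 117 in *gun1M*, 79.7, 92.5 and 91.4 in *gun1G*, and 83.7, 121 and 82.7 in Col-0 (1.33 in *gun1W*, adjusted p = 0.000506). In both, every *gun1W* library lay above every other library. ATMG01110, which resembles a mitovirus RNA polymerase, was low, with 3.58, 2.85 and 3.49 scaled TPM in *gun1W*, 4.57, 5.71 and 1.34 in *gun1M*, 1.80, 1.80 and 1.26 in *gun1G*, and 1.07, 0 and 1.21 in Col-0, and was called in *gun1W* (1.37, adjusted p = 0.0187) and *gun1M* (1.42, adjusted p = 0.0158). ATMG00590, like the cytochrome *b*/*b6* family, was the exception with 9.03, 4.89 and 8.14 scaled TPM in *gun1W*, 8.05, 6.46 and 10.4 in *gun1M*, 11.2, 13.4 and 9.99 in *gun1G*, and 10.4, 10.9 and 9.83 in Col-0. Its *gun1W* libraries lay below those of Col-0, without a call (-0.48, adjusted p = 0.113).

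Open reading frames of unknown function and members with no entry were counted in the same way. In *gun1W*, 7 of 12 tested were called higher, with a median log2 value of 1.17, and 33 of 53 with no entry (1.14). In *gun1M* these were 3 of 12 (0.88) and 18 of 53 (0.82). The 3 reading frames with the highest Col-0 means were ATMG01220, ATMG00970 and ATMG01010. ATMG00970 had 281, 202 and 209 scaled TPM in *gun1W*, 256, 152 and 132 in *gun1M*, 66.1, 103 and 98.8 in *gun1G*, and 97.0, 116 and 83.1 in Col-0. It was higher in *gun1W* (log2 fold change 1.21, SE 0.26, adjusted p = 0.00564). ATMG01010 had 219, 177 and 162 scaled TPM in *gun1W*, 179, 145 and 67.7 in *gun1M*, 69.0, 46.8 and 73.3 in *gun1G*, and 84.9, 60.4 and 85.1 in Col-0, and was higher in *gun1W* (1.27, SE 0.31, adjusted p = 0.0117). In both, *gun1W* was clear of Col-0. ATMG01220 had 574, 614 and 439 scaled TPM in *gun1W*, 305, 348 and 393 in *gun1M*, 242, 381 and 367 in *gun1G*, and 406, 416 and 340 in Col-0, with 0.47 in *gun1W* (adjusted p = 0.102) and -0.16 in *gun1M*.

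The largest increases were found among low members. ATMG00040 had 30.0, 28.0 and 29.7 scaled TPM in *gun1W*, 17.1, 21.7 and 12.4 in *gun1M*, 7.54, 4.29 and 7.47 in *gun1G*, and 5.58, 6.80 and 3.30 in Col-0. It was higher by 2.32 in *gun1W* (log2, SE 0.26, adjusted p = 0.000109) and by 1.55 in *gun1M* (adjusted p = 0.00167), with its *gun1W* libraries nearly equal and clear of all others. ATMG00920, a reading frame of unknown function, had 32.7, 37.8 and 42.6 scaled TPM in *gun1W*, 47.2, 29.5 and 31.6 in *gun1M*, 16.7, 10.9 and 17.3 in *gun1G*, and 14.2, 5.80 and 6.67 in Col-0 (2.06 in *gun1W*, adjusted p = 0.000529, and 1.97 in *gun1M*, adjusted p = 0.000873). ATMG00150 had 18.2, 40.1 and 34.1 scaled TPM in *gun1W*, 35.6, 23.0 and 19.9 in *gun1M*, 6.29, 7.80 and 8.54 in *gun1G*, and 4.63, 6.44 and 10.1 in Col-0 (1.96 in *gun1W*, adjusted p = 0.00112, and 1.77 in *gun1M*, adjusted p = 0.00238). White and marbled libraries overlapped each other and stood above the rest in ATMG00920 and ATMG00150. ATMG00680 had 5.50, 2.87 and 5.89 scaled TPM in *gun1W* and 3.25, 5.32 and 7.14 in *gun1M*, against 0, 0.898 and 0 in Col-0 (2.17 and 2.28, adjusted p = 0.00226 and 0.00194). ATMG00760 had 4.44, 19.0 and 10.4 scaled TPM in *gun1W*, 8.57, 8.27 and 2.26 in *gun1M*, 3.45, 0 and 2.20 in *gun1G*, and was listed at 0 in all Col-0 libraries (adjusted p = 0.00159 in *gun1W* and 0.00626 in *gun1M*). Because the values of low members vary most between libraries, these folds are the least certain. ATMG00680 and ATMG00760 reached a TPM of 1 in no Col-0 library, so they passed the filter for testing only through *gun1* libraries. The direction of their calls is therefore partly set by the filter, which the p-values do not allow for. ATMG00720, with 21.2, 7.75 and 21.8 scaled TPM in *gun1W*, 20.8, 12.9 and 4.08 in *gun1M*, 4.08, 14.1 and 14.2 in *gun1G*, and 3.02, 1.69 and 4.89 in Col-0 (2.04 in *gun1W*, adjusted p = 0.023), lost its call without *gun1W* replicate 1 (1.82) or 3 (1.80), or Col-0 replicate 1 (2.04) or 2 (1.75).

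The increase was not confined to low members. Of the 34 tested members with a Col-0 mean of at least 100 scaled TPM, 22 were called higher in *gun1W* (median 1.12 on the log2 scale) and 11 in *gun1M* (0.78). Of the 48 under 100, 29 were higher in *gun1W* (1.28) and 17 in *gun1M* (0.90). Over all models of any level, 7.54% were called higher in *gun1W* and 7.64% in *gun1M*, and the share at matched levels was not counted. A pair of members with no entry, chosen after their values were seen for their high level, illustrate this. ATMG00060 had 4501, 4919 and 5900 scaled TPM in *gun1W*, 5718, 5801 and 3098 in *gun1M*, 2678, 2484 and 2413 in *gun1G*, and 2208, 2156 and 1691 in Col-0 (1.34 in *gun1W* and 1.22 in *gun1M*). ATMG01360 had 3038, 2746 and 3203 scaled TPM in *gun1W*, 2439, 2601 and 1711 in *gun1M*, 1015, 891 and 956 in *gun1G*, and 959, 951 and 758 in Col-0 (1.76 in *gun1W* and 1.32 in *gun1M*). Neither group overlapped Col-0. Called members lay on both strands among the 29 tested members with a position: 9 of 14 on the plus strand (median 1.36) and 9 of 15 on the minus strand (1.17) were higher in *gun1W*, and 6 of 14 (1.01) and 4 of 15 (0.61) in *gun1M*.

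Some members departed from the median member. With every library set to the same median mitochondrial gene, ATMG00080 (log2 fold change -1.41), ATMG00090 (-1.05), ATMG00590 (-1.59), ATMG01380 (-2.01) and ATMG01390 (-1.61) were lower in *gun1W* than in Col-0. On that scale 4 members were higher in *gun1W* and 5 in *gun1M*. The scale is set from the members themselves, and the median nuclear gene also fell on it in both groups. These values are therefore relative to the other members only. ATMG01380 and ATMG01390 have no entry, so it is not known here whether either is an rRNA. Levels of rRNA in these rRNA-depleted libraries would also depend on the depletion. In *gun1M*, *atp9* was lower on that scale by 1.73 in log2 terms (-1.73, adjusted p = 0.00468), beside ATMG00080 (-1.39), ATMG00590 (-1.11), ATMG01170 (-1.09), ATMG01220 (-1.03), ATMG01380 (-2.47) and ATMG01390 (-2.33). On the nuclear scale none of these was called in limma. ATMG00080 had 975, 944 and 573 scaled TPM in *gun1W*, 672, 434 and 871 in *gun1M*, 468, 776 and 731 in *gun1G*, and 810, 803 and 1120 in Col-0, with overlap between *gun1W* and Col-0 (-0.16, adjusted p = 0.731). ATMG01390 had 82.3, 47.2 and 29.9 scaled TPM in *gun1W*, 19.4, 18.8 and 30.5 in *gun1M*, 8.22, 23.4 and 48.7 in *gun1G*, and 43.5, 72.4 and 81.8 in Col-0. Its *gun1M* libraries all lay below Col-0 (-1.47, adjusted p = 0.0543). Like *atp9*, it was highest in the *gun1W*, *gun1M* and *gun1G* libraries with the largest share of AT3G06365, and the part of that share was not tested for it.

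ATMG00280 was lower in *gun1W*, unlike the other members, as was plastid *rbcL* in level. It had 24660, 22931 and 30334 scaled TPM in *gun1W*, 263859, 229003 and 125633 in *gun1M*, 241063, 261913 and 250554 in *gun1G*, and 224375, 250885 and 232392 in Col-0. The 3 *gun1W* libraries lay far below all others, and *gun1M* replicate 3 was the lowest of the remaining libraries. In *gun1W*, ATMG00280 was lower against Col-0 (log2 fold change -3.19, SE 0.28, adjusted p = 2.4e-05) and against *gun1M* (-2.93, adjusted p = 0.00173), with -0.26 in *gun1M* (adjusted p = 0.508) and 0.09 in *gun1G* (adjusted p = 0.870) against Col-0. It took 3.57 to 5.64% of all TPM in *gun1W*, 13.8 to 22.7% in *gun1M*, 19.8 to 21.5% in *gun1G* and 18.5 to 19.0% in Col-0, more than all other members together in *gun1M*, *gun1G* and Col-0. Plastid *rbcL* (ATCG00490) had 2888, 3027 and 3535 scaled TPM in *gun1W*, 26181, 27441 and 15148 in *gun1M*, 29117, 27915 and 28802 in *gun1G*, and 25813, 31558 and 25940 in Col-0. The ratio of ATMG00280 to *rbcL* was 8.54, 7.57 and 8.58 in *gun1W*, 10.1, 8.35 and 8.29 in *gun1M*, 8.28, 9.38 and 8.70 in *gun1G*, and 8.69, 7.95 and 8.96 in Col-0, so it overlapped among all groups while the levels differed. How many reads of plastid origin stand in the ATMG00280 value was not tested.

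**Figure D4:**
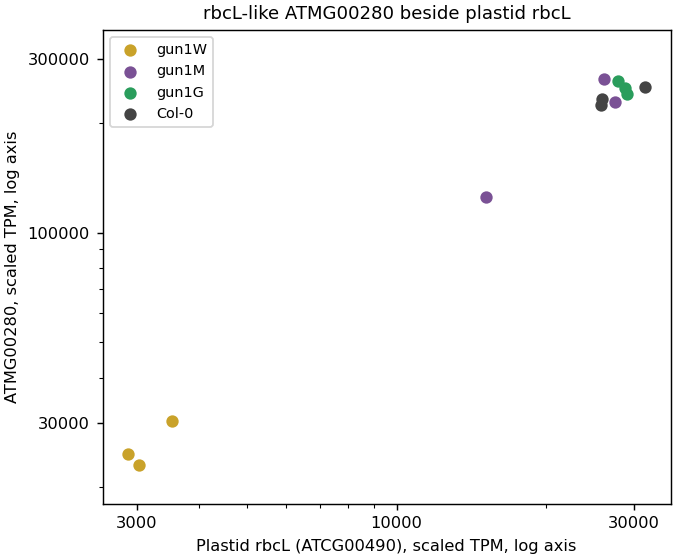
ATMG00280 against plastid *rbcL* (ATCG00490), both in scaled TPM on log axes, 1 point per library, coloured by group. The 12 points lie along a line of nearly constant ratio, with the 3 *gun1W* libraries at the low end.

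The nuclear genes whose products join the mitochondrial ones were counted in the same comparisons. Of 47 nuclear subunits of complexes I to V and cytochrome *c*, 2 were higher and 0 lower in *gun1W* (median log2 fold change 0.14), 2 higher and 1 lower in *gun1M* (0.03) and 0 called in *gun1G* (0.15, limma), beside the 7.54% of all models called higher in *gun1W* and 7.64% in *gun1M*. The adjusted p alone was passed by 7 with higher and 1 with lower values in *gun1W*, by 5 and 5 in *gun1M*, and by 0 in *gun1G*. The share of all models that passed the adjusted p alone was not counted, so these and the similar counts below have no background beside them. Of the 12 genes of complex III and cytochrome *c*, 5 passed it with higher values in each of *gun1W* and *gun1M*. The 17 complex I subunits had a median of 0.05 in *gun1W*, with summed levels of 486 to 521 scaled TPM in *gun1W* and 496 to 517 in Col-0, beside the 3 annotated *nad* members, all called. In *gun1M*, AT3G03100, annotated as an NADH:ubiquinone oxidoreductase subunit, was lower (28.3 ± 18.6 scaled TPM in *gun1M* and 89.2 ± 31.1 in Col-0, SD, n = 3 each, log2 fold change -1.78, adjusted p = 0.0235). The 9 complex V subunits had a median of -0.08 in *gun1W*, the 6 of complex IV 0.36, the 12 of complex III and cytochrome *c* 0.44 and the 3 of complex II, which has no mitochondrially encoded member here, 0.15. The 2 increases in *gun1W* were AT5G25450, listed as a subunit of complex III (19.9 ± 9.53 scaled TPM in *gun1W* and 0.658 ± 0.574 in Col-0, log2 fold change 3.59, adjusted p = 0.00017), and *CYTC-2*, which encodes cytochrome *c* (28.4 ± 12.7 in *gun1W* and 7.13 ± 0.563 in Col-0, 1.74, adjusted p = 0.00307). Both were also higher in *gun1M* (3.50 and 1.79), and in *gun1G* their values were 0.98 and 1.14, without a call. Of 10 nuclear genes of mitochondrial transcription and DNA maintenance 0 were called in *gun1W*, with a median of -0.27 and summed levels of 15.9 to 18.8 scaled TPM in *gun1W*, 17.1 to 22.6 in *gun1M*, 22.7 to 26.5 in *gun1G* and 22.9 to 24.4 in Col-0. Of these, 3 passed the adjusted p under the 2-fold limit, the DNA polymerases *POLGAMMA1* (-0.72, adjusted p = 0.0065) and *POLGAMMA2* (-0.52) and the recombinase *RECA3* (-0.60). Of 15 genes of mitochondrial RNA processing 0 were called in *gun1W* (median -0.16) or *gun1M* (-0.26).

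**Figure D5:**
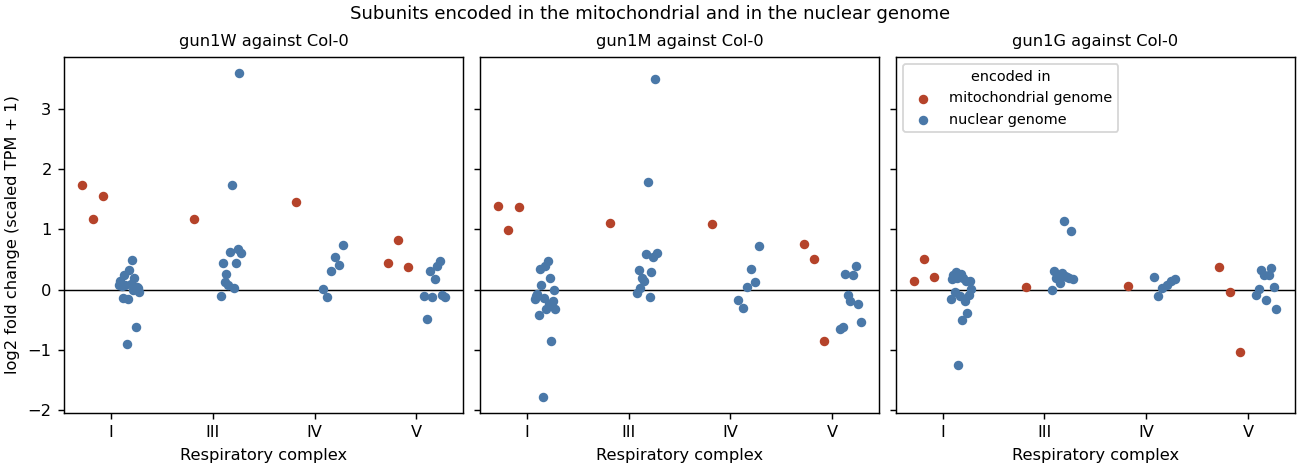
Log2 fold change (scaled TPM + 1) against Col-0 of subunits of complexes I, III, IV and V encoded in the mitochondrial and in the nuclear genome, 1 point per gene, with a panel for each *gun1* group. Of the mitochondrial members only annotated ones are shown. In the *gun1W* and *gun1M* panels those of complexes I, III and IV lie between 0.98 and 1.74. The nuclear medians in *gun1W* and *gun1M* are 0.05 and -0.14 in complex I and 0.36 and 0.08 in complex IV. In complex III with cytochrome *c* they are 0.44 and 0.31, with single values up to 3.59 and 3.50. In complex V the values of the annotated mitochondrial members, 0.37 to 0.82 in *gun1W* and -0.85 to 0.76 in *gun1M*, overlap the nuclear ones.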

How the data were processed

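RNA-seq was measured in 12 libraries, 3 each of *gun1W*, *gun1M*, *gun1G* and Col-0. The authors deposited TPM per transcript from Salmon on the AtRTD3 transcriptome (Trimmomatic, FastQC, STAR and TAIR10 are also named, versions not given in the sources used here). A second deposited table repeats the TPM of 292 plastid transcripts with the same values. TPM was summed per gene and multiplied by 1 factor per library, the median ratio over the 12490 nuclear genes that reached 1 TPM in every library. TPM is no count, so limma 3.58.1 (R 4.3.3; trend, all 12 libraries in 1 fit) was run on log2(scaled TPM + 1) over the 18373 non-plastid models that reached 1 TPM in 3 or more libraries, which understates folds of low genes. Calls needed a Benjamini-Hochberg adjusted p under 0.05 and 2-fold. The test was checked on simulated data. Names came from TAIR10.1 and BLAST 2.17.0 against the mitochondrial genome; sequences are from RefSeq. Python 3.11.15, pandas 2.3.3, numpy 2.4.6 and matplotlib 3.10.9 were used.

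Members and lists were chosen with earlier results of these data known. Named were ATMG00280, members of known function (the 3 highest in Col-0 per class), up to 6 of the largest changes per comparison with Col-0 among non-overlapping calls, the 3 highest reading frames in Col-0, and from every nuclear list up to 3 genes, by lowest adjusted p in *gun1W*. Alternatives tried were other pseudocounts, filters, scalings, a covariate, a replicate block, fits on 2 groups, sums with nuclear copies and leaving out each library.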

Additional observations from a re-analysis of the deposited data

Results flagged for a closer look

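A pair of gene models that join neighbouring mitochondrial identifiers, and so are not among the 88 members, had more signal in *gun1W* and *gun1M* than in Col-0. ATMG00516-ATMG00520 averaged 146.0 scaled TPM in *gun1W* and 107.0 in *gun1M*, against 55.8 in Col-0 (log2 fold change 1.38 in *gun1W*, limma adjusted p = 6.93e-05, and 0.93 in *gun1M*, under 2-fold). Its libraries had 151, 140 and 147 scaled TPM in *gun1W*, 94.1, 123 and 103 in *gun1M*, 47.8, 48.6 and 51.3 in *gun1G*, and 58.7, 62.3 and 46.4 in Col-0. ATMG00670-ATMG09740 averaged 44.6 scaled TPM in *gun1W* and 29.3 in *gun1M*, against 15.3 in Col-0 (1.44 in *gun1W*, adjusted p = 0.00126, and 0.87 in *gun1M*, under 2-fold). *gun1G* averaged 49.3 and 16.4 scaled TPM for these models.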

How the results depend on the processing

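Scaling had the largest effect on the counts. On TPM as deposited, which shifted the median nuclear gene by 0.82 in *gun1W*, 0.18 in *gun1M* and 0.03 in *gun1G* against Col-0 (log2), the members' median was 2.18 for *gun1W* against Col-0, 2.13 for *gun1W* against *gun1G* (75 higher) and 1.12 for *gun1W* against *gun1M* (49 higher), and 0 were higher in *gun1G* against Col-0. Of all 18373 models, 6175 were called higher on that scale in *gun1W* against *gun1G*, 2381 in *gun1W* against *gun1M* and 443 in *gun1G* against Col-0. With the summed TPM of nuclear genes held equal between libraries the medians were 1.40 for *gun1W* against Col-0, 1.38 for *gun1W* against *gun1G* and 0.52 for *gun1W* against *gun1M*. In the last of these 1 member was higher. With the median mitochondrial gene at the same level, which shifted the median nuclear gene by -0.96 in *gun1W* and -0.69 in *gun1M*, 4 were higher and 5 lower in *gun1W* against Col-0 (median 0.011), 5 and 7 in *gun1M* against Col-0 (0.075), 1 and 3 in *gun1W* against *gun1G* (0.040), 1 and 2 in *gun1M* against *gun1G* (0.017), and the *gun1W* against *gun1M* median was -0.024. The signs of *cob* (ATMG00220, -0.085), ATMG00970 (-0.039) and ATMG01275 (-0.093) in *gun1W* against Col-0, and of ATMG00220 (-0.074) and ATMG00410 (-1.14) in *gun1W* against *gun1G*, reversed on that scale. The shares over nuclear and mitochondrial models are 14.0, 10.7, 6.81 and 7.39% in *gun1W*, *gun1M*, *gun1G* and Col-0.

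Pseudocounts of 0.1 and 5 gave medians of 1.26 and 1.06 for *gun1W* against Col-0 and 1.23 and 1.07 for *gun1W* against *gun1G*. With pseudocount 5, a filter at a TPM of at least 5, or only the 2 groups compared, 1 member was lower in *gun1M* against Col-0. In *gun1G* against Col-0, 0 were higher with pseudocount 5, only the 2 groups, or the share of AT3G06365 as a covariate, which also gave a median of 1.27 for *gun1W* against Col-0. Only the 2 groups gave 6 members higher in *gun1M* against *gun1G*. Of 2116 values of single members, 43 that were called under neither setting changed sign.

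Leaving out each library in turn gave 42 to 53 members higher and 0 to 1 lower in *gun1W* against Col-0 (medians 1.13 to 1.22), 22 to 40 higher and 0 to 1 lower in *gun1M* against Col-0 (0.77 to 0.94), 0 to 1 higher and 0 to 1 lower in *gun1G* against Col-0 (-0.01 to 0.07), 38 to 47 higher in *gun1W* against *gun1G* (1.13 to 1.22), 8 to 26 in *gun1M* against *gun1G* (0.69 to 0.89) and 0 in *gun1W* against *gun1M* (0.24 to 0.44). In *gun1G* against Col-0, 0 were higher without *gun1G* replicate 1 or 3 or Col-0 replicate 3. Without Col-0 replicate 1 the call of ATMG00680 was also lost and ATMG00920 was called instead (1.12, adjusted p = 0.0421). A count of 1 lower member appeared without Col-0 replicate 1 in *gun1W*; without *gun1W* replicate 1 or 3, *gun1G* replicate 1 or 3 or Col-0 replicate 1 in *gun1M*; and without *gun1G* replicate 3 or Col-0 replicate 1 in *gun1G*.

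Deviations from the group means in libraries with the same replicate number had correlations of -0.286 to 0.311, 4 of 18 over 0.1. With 3 libraries per group such values cannot show whether the numbers pair the libraries. With the replicate number as a block, 49 members were higher in *gun1W* against Col-0, 28 were higher and 1 lower in *gun1M* against Col-0, 42 were higher in *gun1W* against *gun1G* and 20 in *gun1M* against *gun1G*. The read depth is unknown, and values under about 10 scaled TPM varied most between replicates.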
